A study of Mus musculus with 15 samples.

Results

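Primary mouse lung fibroblasts that had received IL-33 alone were compared with fibroblasts that had received IL-33 and IL-13 together, 3 libraries of each. These 6 libraries were taken by their treatment labels from a series of 15, whose other 9 libraries were untreated, received IL-33 and IL-17A, or received all 3 cytokines, again 3 of each. All cells came from wild-type mice of the BALB/cJ strain and were collected 20 h after stimulation. Of 18078 genes in the files, 13202 reached 1 TPM (a transcript level scaled to gene length and library depth) in at least 3 of the 6 libraries and were tested. The labels name no cytokine dose, no animal and no culture day, so the tests see only the spread from library to library, part of which could be technical.

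IL-13 is a type 2 cytokine that binds a receptor made of the chains IL-4Rα and IL-13Rα1 and signals through Janus kinases to the transcription factor STAT6. A second receptor chain, IL-13Rα2, binds IL-13 tightly and is generally regarded as a decoy that limits the signal. IL-33 belongs to the IL-1 family and is released by damaged cells as an alarm signal. Its receptor, ST2, pairs with IL-1RAP and acts through MyD88 on NF-κB. Lung fibroblasts are known targets of IL-13 in type 2 inflammation, where they release eosinophil-attracting chemokines and lay down matrix.

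The labelled cell type was checked first. All 15 fibroblast markers listed were among the tested genes, and their summed level was 14033 to 14889 TPM with IL-33 and 12357 to 12703 TPM with IL-33 and IL-13. Macrophage transcripts were abundant in the same libraries: 16 of the 17 macrophage markers in the files were tested, and they summed to 19924 to 20109 TPM with IL-33 and 18975 to 19153 TPM with IL-13 added. Epithelial markers summed to 5.28 to 6.94 TPM and 8.49 to 10.9 TPM, endothelial markers to 6.33 to 7.48 TPM and 6.34 to 7.08 TPM, and the epithelial gene Epcam averaged under 0.1 TPM in both groups. The 4 mast cell and basophil markers in the files summed to 125 to 135 TPM and 151 to 163 TPM. The 5 neutrophil and eosinophil markers in the files summed to 58.8 to 79.6 TPM and 71.4 to 78.5 TPM. In bulk RNA of this kind, fewer cells of a type and less RNA per cell cannot be told apart, and neither can fibroblast and macrophage sources of a transcript. The part of macrophage RNA in the changes below was not tested.

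Estimated depth was 11020993 to 11696603 reads per library with IL-33 and 12424814 to 12800695 with IL-13 added. The files scale TPM by the whole span of a gene, introns included, so levels of different genes compare only per unit of span. The share of TPM in the 13 genes encoded by mitochondrial DNA was 3.50% to 3.81% in the 3 libraries with IL-13 added and 4.77% to 5.45% in the 3 with IL-33 alone. Across the series, 6 libraries had a low share of this kind, the low-mitochondrial set: the 3 of this comparison that had IL-13, replicates 2 and 3 of the IL-33 plus IL-17A group, and replicate 1 of the group with all 3 cytokines. In the 6 libraries compared, this set and IL-13 cannot be told apart. A second fit therefore included a term for the set, which is estimated from the 2 groups that hold libraries of both kinds. Beside it, the same addition of IL-13 was read in independent libraries, those with IL-33, IL-13 and IL-17A against those with IL-33 and IL-17A. Each of these groups holds libraries from inside and outside the set, but not in balance. The set takes 2 of the 3 libraries without IL-13 and 1 of the 3 with it. A change that follows the set would therefore enter this comparison with the opposite sign and a smaller size.

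Adding IL-13 to IL-33 raised a small group of genes many-fold, among them the homeobox gene Msx3, the retinoic acid synthesis gene Aldh1a3 and the eotaxin gene Ccl11, and lowered most of the matrix and contractile genes listed by smaller amounts. By limma on log2(TPM + 1), 4519 of 13202 genes (34.2%) passed an adjusted p of 0.05, 1389 higher (10.5%) and 3130 lower (23.7%). The libraries of the groups did not overlap for 7130 genes (54%). The median log2 change of all tested genes was -0.08, and the balance of higher and lower calls followed the scaling: with each library rescaled by median ratios, 2304 genes were higher and 2056 lower, and by limma's voom on recovered reads 2362 were higher and 2331 lower. At 2-fold or more, 210 genes passed (1.59%), of which 141 were higher (1.07%) and 69 lower (0.523%). With the set term, 1428 genes passed in all (10.8%), 661 higher (5.01%) and 767 lower (5.81%), and 133 at 2-fold or more (1.01%).

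**Figure D1:**
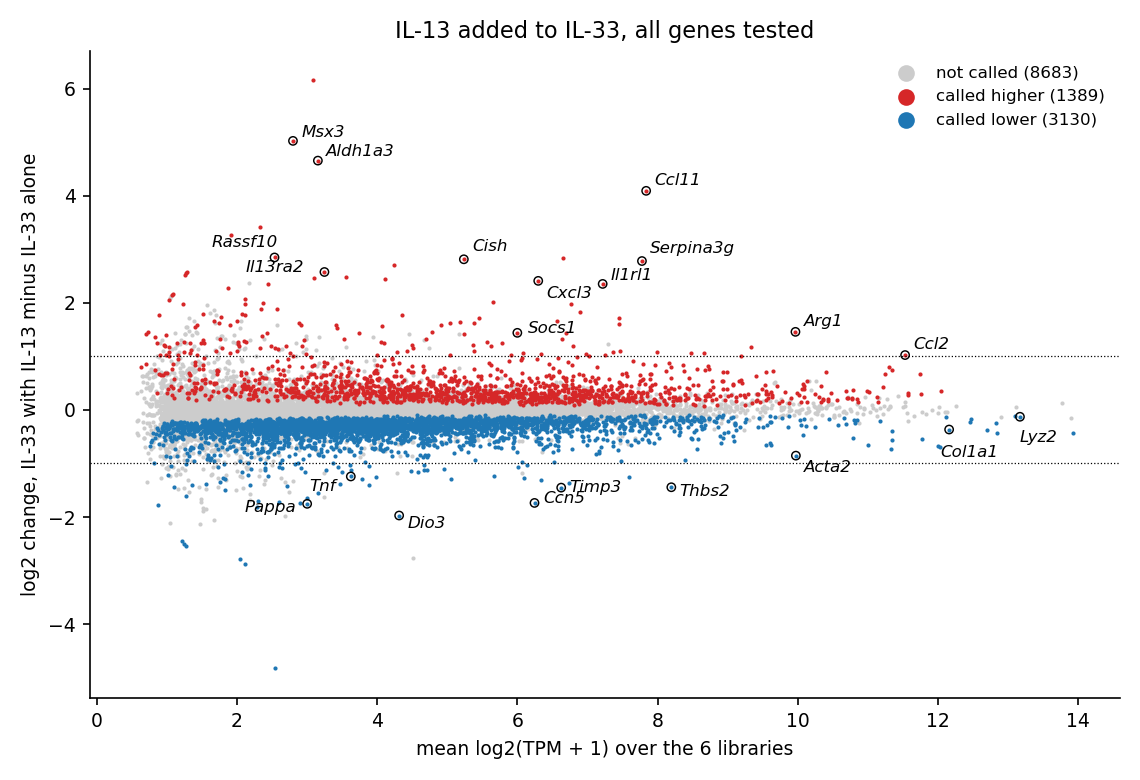
Each point is 1 of the 13202 tested genes, by its mean log2(TPM + 1) over the 6 libraries (x axis) and its log2 change with IL-13 added to IL-33 (y axis). Red points were called higher (1389) and blue points lower (3130), dotted lines mark a 2-fold change, and circled genes are named in the text. The largest rises of the circled genes are those of Msx3 and Aldh1a3 at low mean levels and Ccl11 at a high one.

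Of the 146 protein-coding genes among the 2-fold calls, 103 were higher and 43 lower. In the independent libraries with IL-17A, 95 of the 103 had the same sign and 83 were called higher there as well, against 6.98% of all genes tested. Of the 43 lower genes, 40 had the same sign and 36 were called lower, against 9.65%. The other 64 genes at 2-fold or more, pseudogenes and non-coding RNAs among them, behaved differently: 18 of 38 higher and 11 of 26 lower kept their sign, and 6 and 2 were called in the same direction. These genes were also lower in level: the median of their higher group mean was 7.49 TPM for rises and 7.70 TPM for falls. It was 22.2 and 14.5 TPM for the protein-coding genes. With the set term, 9 of the 38 and 6 of the 26 passed, against 82 of the 103 and 37 of the 43. The difference between the annotation classes was not tested, and the libraries with IL-17A are not balanced for the low-mitochondrial set.

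**Figure D2:**
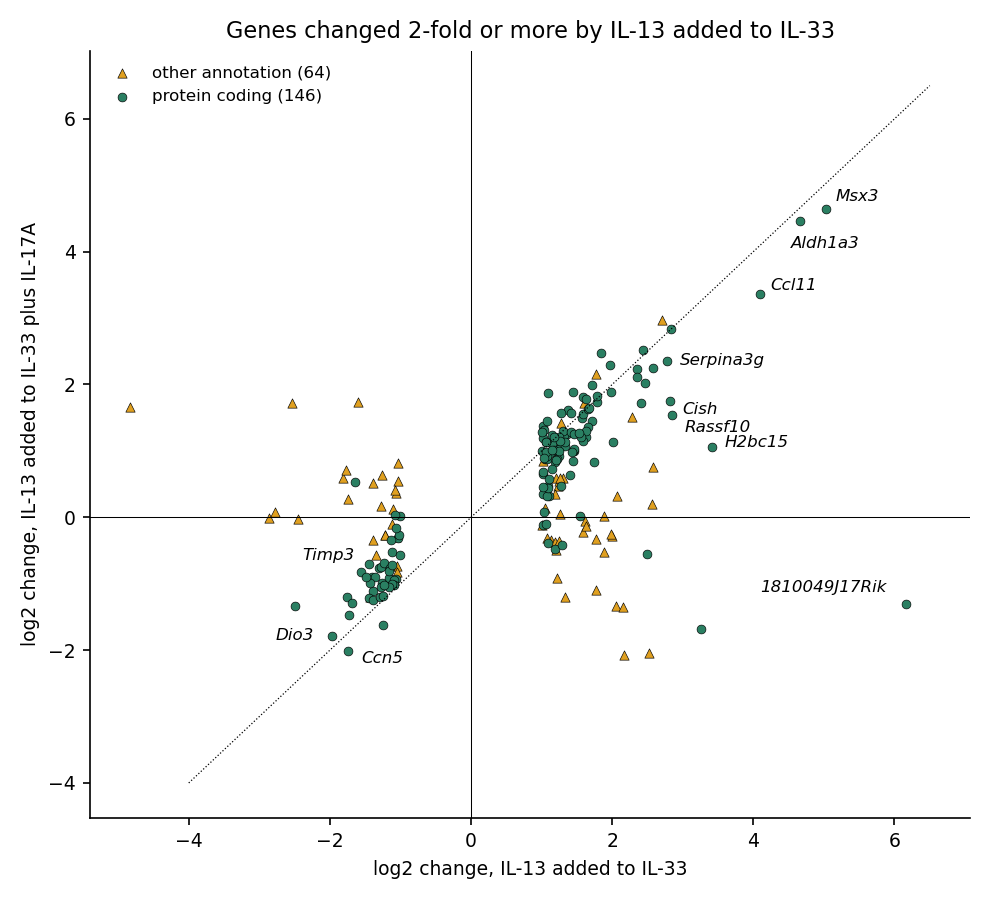
Each point is 1 of the 210 genes called at 2-fold or more, by its log2 change when IL-13 was added to IL-33 (x axis) and when IL-13 was added to IL-33 plus IL-17A, in other libraries (y axis). Green circles are protein-coding genes (146), yellow triangles are genes of other annotation (64), and the dotted line marks equal changes. Most circles lie near the line, and many triangles lie near or across a change of 0 on the y axis.

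Ccl11 encodes eotaxin-1, a chemokine that attracts eosinophils through the receptor CCR3. It lies on chromosome 11 (82057823 to 82062955, plus strand, mm10). Its level was 56.5, 45.0 and 63.4 TPM in the 3 libraries with IL-33 and 997, 913 and 923 TPM in the 3 with IL-13 added. The groups were far apart, with means of 55.0 ± 9.29 and 944 ± 46.1 TPM (SD, n = 3). The log2 change was 4.09 ± 0.13 (SE, limma adjusted p = 1.1e-09), 17-fold on the log2(TPM + 1) scale. Untreated cells had 6.0 to 8.84 TPM. With IL-17A present, the level went from 102 to 122 TPM without IL-13 to 1110 to 1202 TPM with it, a log2 change of 3.36 ± 0.13. In that comparison the change was 3.36 inside the low-mitochondrial set (1 library with IL-13 against 2 without). Outside the set it was 3.27 (2 libraries against 1). Each value thus rests on 1 library on 1 side and has no spread.

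Aldh1a3 (chromosome 7, 66390890 to 66427517, minus strand), whose product makes retinoic acid from retinaldehyde, stood at 0.758, 0.516 and 1.10 TPM with IL-33 alone and at 43.9, 45.2 and 42.2 TPM with IL-13 added. Its log2 change was 4.66 ± 0.11 (limma adjusted p = 6.5e-11). Untreated cells (0.638 to 1.06 TPM) and cells with IL-33 and IL-17A (0.956 to 1.16 TPM) had low levels as well, so every library above 40 TPM had received IL-13.

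Msx3, a homeobox gene best known from the dorsal neural tube, was all but unread with IL-33 alone: 0, 0.358 and 0.345 TPM, or 2 estimated reads in the 3 libraries together. With IL-13 added it reached 35.5, 41.9 and 39.2 TPM, or 395 reads. The ratio of reads, scaled to TPM, was 166 with a 95% exact counting interval of 45.7 to 1376. On the log2(TPM + 1) scale the change was 5.02 ± 0.15 (limma adjusted p = 4.8e-10). The libraries with all 3 cytokines had 28.3, 26.3 and 24.2 TPM, and the change in the presence of IL-17A was 4.64 ± 0.15.

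**Figure D3:**
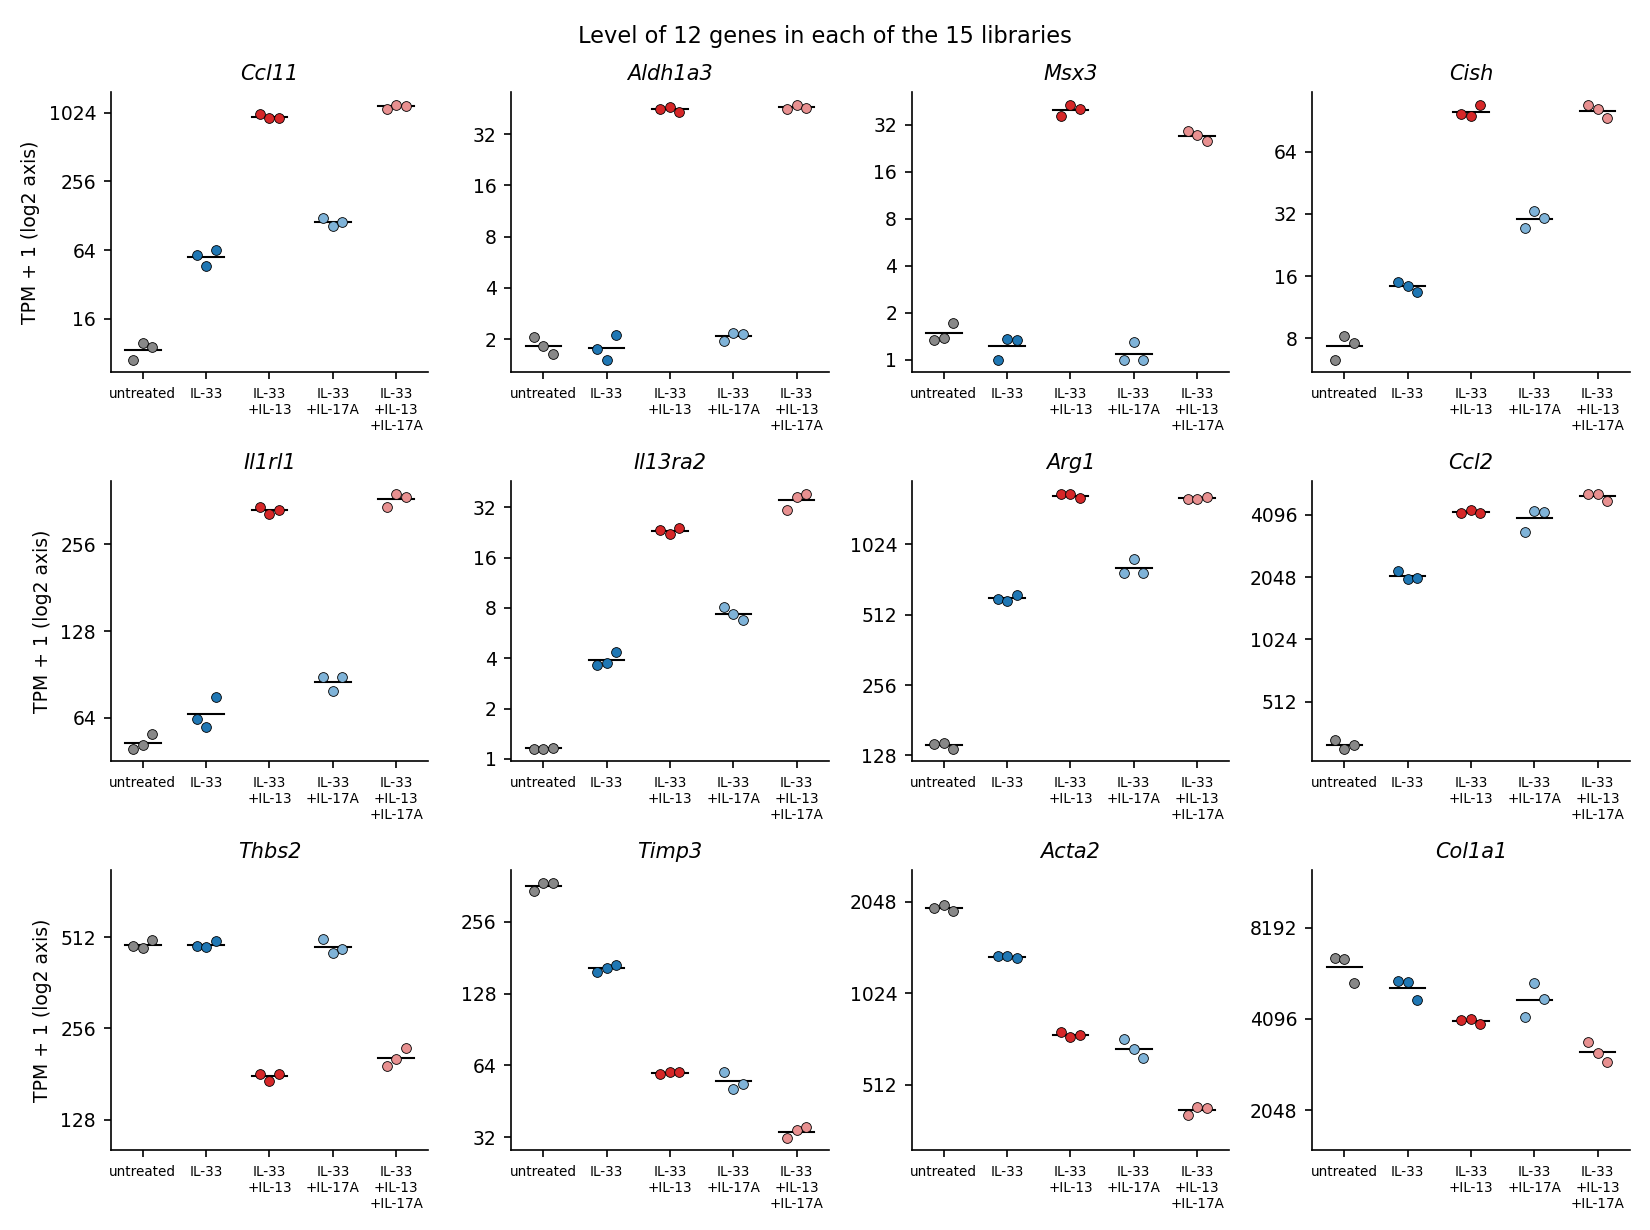
Each panel gives 1 gene, with TPM + 1 on a log2 axis (y) for the 15 libraries in their 5 groups (x). Points are libraries and bars are the mean of the log2 values of the 3 libraries in a group. The first 8 genes are higher with IL-13 added to IL-33 and the last 4 lower, and Aldh1a3 and Msx3 are high only in the 6 libraries with IL-13.

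The genes of the receptors came next. Il13ra2, the decoy chain, rose from 2.63, 2.76 and 3.34 TPM to 22.4, 21.1 and 23.2 TPM, a log2 change of 2.58 ± 0.09 (limma adjusted p = 2.6e-09). Untreated cells had 0.149 to 0.163 TPM of it. Il1rl1, the gene of the IL-33 receptor ST2 (chromosome 1, 40429570 to 40465415, plus strand), rose from 62.6, 58.6 and 74.4 TPM to 345, 327 and 335 TPM, a log2 change of 2.35 ± 0.08 (limma adjusted p = 1.7e-09). Both changes were similar in size with IL-17A present, 2.25 ± 0.09 and 2.11 ± 0.08.

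The signalling chains behaved differently from these 2 genes. Il4ra had 300 ± 7.68 TPM with IL-33 and 300 ± 6.38 TPM with IL-13 added, and its estimated log2 change lay between -0.02 and 0.10 over all settings and did not pass in any of them. Il13ra1 fell from 15.8 ± 0.644 to 12.5 ± 0.298 TPM, a log2 change of -0.31 ± 0.07, and Stat6 from 131 ± 1.16 to 112 ± 2.31 TPM, a log2 change of -0.22 ± 0.04. Neither fall passed with the set term (limma adjusted p = 0.23 and 0.09). Il1rap, the partner chain of ST2, did not pass (8.09 ± 0.472 and 8.0 ± 0.307 TPM). Of 17 tested receptor and proximal signalling genes, 2 rose and 4 fell, shares close to those of all genes (10.5% and 23.7%). The counts were 3 and 1 with the set term, and the median change was -0.09 against -0.08 for all genes. With IL-17A present, 3 of the 17 rose and none fell. Il17ra, a chain of the IL-17 receptor, fell from 49.7 ± 1.64 to 33.2 ± 2.53 TPM, a log2 change of -0.57 ± 0.06 (limma adjusted p = 5.3e-05).

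Among the genes that start within 250 kb of Il1rl1, the IL-1 receptor gene Il1r1 (0.58 ± 0.08) and Il18rap (0.46 ± 0.11), a chain of the IL-18 receptor, also rose on the log2 scale, from 10.8 ± 0.934 to 16.7 ± 1.06 TPM and from 2.35 ± 0.437 to 3.60 ± 0.373 TPM. Il1rl2, which lies between Il1r1 and Il1rl1, had 8.68 ± 0.369 and 8.78 ± 0.568 TPM and did not pass (log2 change 0.01 ± 0.06).

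Known response genes of STAT6 moved upward as a group. Of 25 tested members, 20 rose and 1 fell (10.5% and 23.7% of all genes), with a median log2 change of 0.70. The list was drawn up with earlier results of these data known, so its direction is no independent evidence. With the set term 20 rose and none fell, and with IL-17A present 21 rose and none fell.

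Feedback inhibitors of cytokine signalling were prominent in that list. Cish, a SOCS-family gene, rose from 14, 13.4 and 12.4 TPM to 96.2, 94.8 and 107 TPM, a log2 change of 2.81 ± 0.10 (limma adjusted p = 2e-09). Socs1, which encodes an inhibitor of Janus kinases, rose from 46.5, 36.0 and 32.5 TPM to 92.1, 111 and 112 TPM (1.44 ± 0.17). Socs3 went from 410 ± 19.7 to 828 ± 27.9 TPM, a log2 change of 1.01. Serpina3g, a serine protease inhibitor of the intracellular space, rose from 79.8, 78.0 and 91.0 TPM to 578, 572 and 573 TPM (2.78 ± 0.07). It belongs to a cluster of near-identical genes, so reads of its copies may have been split.

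Some members of the STAT6 list are also genes of macrophages, and the following are examples. Arg1, the arginase that turns arginine into ornithine (chromosome 10, 24915221 to 24927484, minus strand), had 599, 587 and 623 TPM with IL-33 and 1687, 1677 and 1611 TPM with IL-13 added. Its log2 change was 1.46 ± 0.05 (limma adjusted p = 1.6e-09), and untreated cells had 136 to 144 TPM. Mrc1, the mannose receptor, rose from 81.1 ± 2.85 to 146 ± 2.70 TPM (log2 change 0.84), and Clec7a, the β-glucan receptor dectin-1, from 10.1 ± 0.48 to 36.8 ± 2.64 TPM (1.77 ± 0.12). Chil3, a chitinase-like protein, had no read in the 3 libraries with IL-33 and 116 with IL-13 added, at least 32.5-fold higher against a floor of 3 reads over the group. Retnla had no read and 12 reads, at least 3.36-fold higher. Of the 16 tested macrophage markers, 3 rose and 8 fell (10.5% and 23.7% of all genes), 2 and 3 with the set term. The most abundant of them, Lyz2, averaged 9627 ± 214 and 8810 ± 92.6 TPM. Of the 15 fibroblast markers, 1 rose and 9 fell, and 1 and 5 with the set term.

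The promoters of the genes that rose were searched for 3 motifs on both strands, in the 250 bases before each RefSeq start (GRCm38.p6). The first was TTC and GAA with 4 bases of any kind between them, the spacing that STAT6 binds. The second was TTCNNNGAA, with 3 bases between, the spacing of other STAT proteins, and the third was GGG and CC with 5 bases between, a loose NF-κB motif. Of the 141 genes higher at 2-fold or more, 79 had a promoter in the table, and 9 of them (11.4%) held the STAT6 spacing, against 5.48% of 9483 tested genes and 5.85% of all 32851 promoters. Of the 34 lower genes with a promoter, 1 (2.94%) held it. TTCNNNGAA was present in 8.86% of the higher genes, 6.90% of tested genes and 7.02% of all promoters, and the NF-κB motif in 63.3%, 66.5% and 45.8%. A match describes letters in a window and is no evidence of binding.

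Matches upstream of 4 genes that rose are shown because they hold the spacings searched for, with the motif in capitals, 5′ to 3′ on the gene's strand. They were chosen after their values were seen. The Tfpi2 window lies 96 to 175 bases before 1 of its 3 RefSeq starts (chr6:3968471-3968550, minus strand), that of Edn1 141 to 220 bases before its start (chr13:42301256-42301335, plus strand), and those of Il33 (chr19:29925033-29925112, plus strand) and Serpina3g (chr12:104236067-104236146, plus strand) in the last 80 bases before a start.
Tfpi2: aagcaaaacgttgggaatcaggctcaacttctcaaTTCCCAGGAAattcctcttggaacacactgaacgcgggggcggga
Edn1: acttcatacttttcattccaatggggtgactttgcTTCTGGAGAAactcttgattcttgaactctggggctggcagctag
Il33: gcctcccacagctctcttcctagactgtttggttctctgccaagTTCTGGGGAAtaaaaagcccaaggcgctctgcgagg
Serpina3g: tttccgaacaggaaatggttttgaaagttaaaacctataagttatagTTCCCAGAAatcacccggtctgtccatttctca
In the first 3 windows the capitals are the STAT6 spacing, and in Serpina3g they are TTCNNNGAA.

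Cish held neither STAT spacing in the 250 bases before its RefSeq start. The 20 bases that begin at that start (chr9:107296659-107296678, plus strand) hold 2 copies of TTCNNNGAA, in capitals.
Cish: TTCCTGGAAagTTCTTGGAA
Tfpi2, which encodes a protease inhibitor of the extracellular matrix, rose from 6.43 ± 0.492 to 39.3 ± 0.772 TPM (log2 change 2.44 ± 0.12). Edn1, the gene of the vasoconstrictor endothelin-1, rose from 2.27 ± 0.0984 to 7.88 ± 0.295 TPM (1.44 ± 0.15).

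Chemokines for eosinophils and monocytes were raised together. Of 5 tested eosinophil and type 2 chemokines, 4 rose and none fell (10.5% and 23.7% of all genes). All 5 tested CC chemokine genes of the chromosome 11 cluster within 250 kb of Ccl11 rose. Ccl2, the monocyte chemokine MCP-1, lies 22.3 kb upstream of Ccl11 and had 2185, 2009 and 2032 TPM with IL-33 and 4181, 4309 and 4170 TPM with IL-13 added (log2 change 1.02 ± 0.08, limma adjusted p = 1.8e-06). Ccl7, 12.1 kb upstream, went from 1914 ± 207 to 3320 ± 107 TPM (0.80 ± 0.10). Ccl12 went from 165 ± 23 to 297 ± 12.7 TPM and Ccl8 from 245 ± 21.3 to 442 ± 51.6 TPM, both with a log2 change of 0.85 ± 0.10. Ccl11 thus stood out from its neighbours by its size of change, while Ccl2 and Ccl7 remained the most abundant of the 5. Ccl24, eotaxin-2, was low (0.871 ± 0.818 and 2.87 ± 1.13 TPM). Its call (1.12 ± 0.34) was lost with the set term, where the change was 0.65 (limma adjusted p = 0.47), and without replicate 2 of IL-33, where it was 0.72 (0.092). It was also lost at larger or similar changes: 2.31 with a pseudocount of 0.1 TPM, 1.12 in a fit of the 6 libraries alone, 0.89 without replicate 1 and 1.18 without replicate 2 of IL-33 plus IL-13 (limma adjusted p = 0.052 to 0.097).

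**Figure D4:**
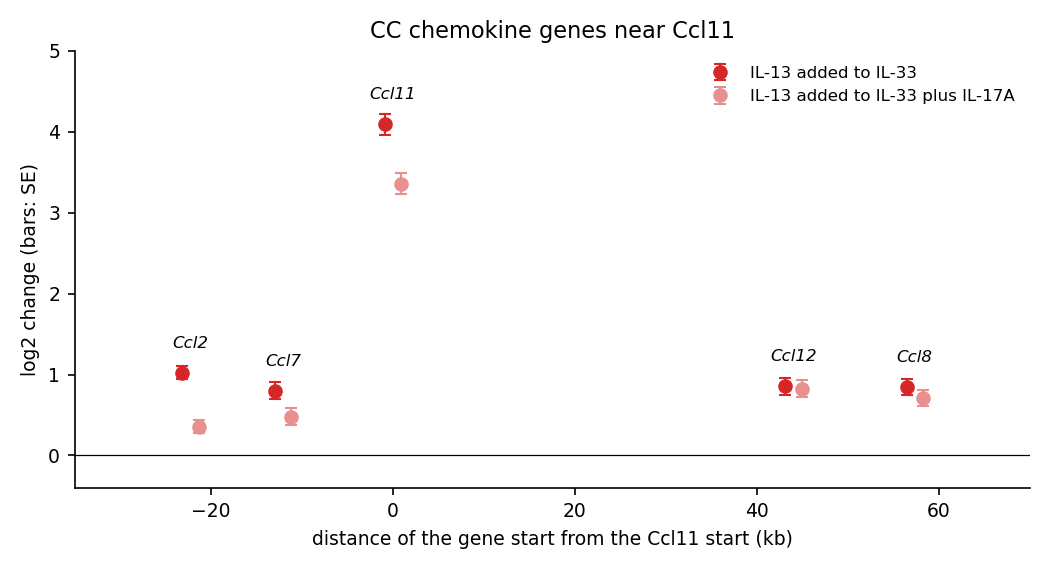
Log2 change with IL-13 (y axis, bars are standard errors) of the 5 tested chemokine genes near Ccl11, by the distance of their start from the Ccl11 start in kb (x axis). Dark points are IL-13 added to IL-33 and pale points IL-13 added to IL-33 plus IL-17A, drawn slightly apart. Ccl11 is at 4.09 and 3.36, and the other 4 genes lie between 0.36 and 1.02.

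Factors that act on monocytes and macrophages rose in the main. Of 26 tested, 16 rose and 7 fell (10.5% and 23.7% of all genes), so the share that fell was close to that of all genes. With median-ratio scaling 16 rose and 4 fell. In the fit with the set term, 13 rose and 3 fell. Complement C3 went from 61.9 ± 3.33 to 156 ± 6.05 TPM (1.32 ± 0.06) and the gp130 cytokine gene Il11 from 86.9 ± 3.0 to 181 ± 9.81 TPM (1.05 ± 0.06). Lif, of the same family, had 121, 117 and 119 TPM with IL-33 and 252, 264 and 254 TPM with IL-13 added (1.10 ± 0.07, limma adjusted p = 2.2e-07). Csf1, the macrophage growth factor, went from 447, 454 and 457 TPM to 624, 652 and 634 TPM (0.49 ± 0.03, limma adjusted p = 6.9e-07). With IL-17A present Csf1 had 325 to 342 TPM without IL-13 and 341 to 368 TPM with it, a log2 change of 0.08 ± 0.03 that did not pass.

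Tnf, the gene of the inflammatory cytokine TNF, moved the other way. It fell from 14.9, 19.2 and 20.4 TPM to 7.20, 6.82 and 7.07 TPM (log2 change -1.24 ± 0.19, limma adjusted p = 0.0005). Il1b fell from 14.2 ± 2.34 to 9.77 ± 2.14 TPM, a call that was lost with the set term (adjusted p = 0.26 by limma). Il6 rose from 306 ± 31.7 to 400 ± 11.5 TPM (0.39 ± 0.08). Csf2, which encodes GM-CSF, had 7.44 ± 1.68 and 14.1 ± 0.746 TPM (0.86 ± 0.16), a call lost with a pseudocount of 0.1 TPM, where the change was 0.94 (limma adjusted p = 0.17).

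Neutrophil factors rose too, 7 of 9 tested members with none lower (10.5% and 23.7% of all genes). Cxcl3 went from 33.5, 33.3 and 32.6 TPM to 186, 183 and 173 TPM (2.41 ± 0.11, limma adjusted p = 1.8e-08). Cxcl2 went from 52.6 ± 9.49 to 168 ± 17.3 TPM (1.67 ± 0.24) and Csf3, the gene of G-CSF, from 15.4 ± 1.01 to 40.2 ± 5.09 TPM (1.33 ± 0.13). Lymphocyte chemokines did not share this direction: of 4 tested, none rose, and the interferon-induced Cxcl10 (-1.43 ± 0.27) and Cxcl16 (-0.40 ± 0.04) fell. The Cxcl10 call was lost with the set term (limma adjusted p = 0.063).

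The alarmin genes Tslp and Il33 were higher with IL-13. Tslp, an epithelial and stromal cytokine that acts on dendritic cells and innate lymphocytes, had 4.66, 3.81 and 3.43 TPM with IL-33 and 11.7, 11.2 and 10.8 TPM with IL-13 added (1.31 ± 0.12, limma adjusted p = 6.5e-06). Il33 itself had 9.94, 11.4 and 11.9 TPM and 18.9, 16.6 and 17.4 TPM (0.63 ± 0.11, limma adjusted p = 0.0015). The highest levels of both were in the 3 libraries with all 3 cytokines, 17.4 to 21.4 TPM of Tslp and 46.9 to 58.4 TPM of Il33.

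Several genes of vitamin A handling rose beside Aldh1a3. Of 20 tested members of the retinoid list, 8 rose and 4 fell (10.5% and 23.7% of all genes). With median-ratio scaling 13 rose and 1 fell. Crabp2, which carries retinoic acid to its nuclear receptors, went from 11.4 ± 0.768 to 22.6 ± 1.45 TPM (0.93 ± 0.10). The retinaldehyde reductase gene Dhrs3 (0.66 ± 0.06) and the retinol dehydrogenase genes Rdh5 (0.61 ± 0.12) and Dhrs9 (0.60 ± 0.11) rose as well. The retinoic acid receptor genes Rara and Rarg were among the 4 that fell, and none of those 4 falls passed with the set term.

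Of 25 tested homeobox genes, 3 rose (Msx3, Irx3 and Irx5) and 7 fell, shares close to those of all genes (10.5% and 23.7%). Irx3 went from 16.5 ± 2.80 to 51.5 ± 9.31 TPM (1.58 ± 0.14) and Irx5 from 1.58 ± 0.522 to 3.25 ± 0.185 TPM (0.74 ± 0.15). Prrx1, a mesenchymal identity gene, fell from 98.7 ± 9.45 to 62.9 ± 2.38 TPM (-0.64 ± 0.09). Msx2 fell from 2.39 ± 1.09 to 0.979 ± 0.370 TPM, which did not pass with the set term (limma adjusted p = 0.26).

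Arginine supply and use rose beside Arg1. Slc7a2, a transporter of cationic amino acids, had 22.9, 22.7 and 23.8 TPM with IL-33 and 78.6, 79.2 and 76.2 TPM with IL-13 added (1.71 ± 0.05, limma adjusted p = 2.5e-10). Odc1, the first enzyme of polyamine synthesis, went from 318 ± 32.7 to 559 ± 16.7 TPM (0.82 ± 0.06). Nos2, the nitric oxide synthase that competes with arginase for arginine, fell from 12 ± 0.470 to 7.01 ± 0.511 TPM (-0.70 ± 0.07, limma adjusted p = 1.1e-05). Of 19 tested genes of arginine, polyamine and proline metabolism, 9 rose and 3 fell (10.5% and 23.7% of all genes). With the set term 7 rose and 1 fell.

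Matrix genes fell more often than they rose. Of 46 tested collagens, glycoproteins and their processing enzymes, 31 fell and 5 rose (23.7% and 10.5% of all genes). The share that rose was close to that of all genes. The counts were 29 and 5 with the set term and 27 and 5 with IL-17A present. The list's median log2 change was -0.35. Thbs2, an antiangiogenic matrix protein (chromosome 17, 14665500 to 14694235, minus strand), had 477, 476 and 497 TPM with IL-33 and 180, 170 and 180 TPM with IL-13 added (-1.44 ± 0.05, limma adjusted p = 2.7e-09). Untreated cells had 470 to 501 TPM of it and cells with IL-33 and IL-17A 453 to 504 TPM, so its low libraries were those with IL-13. Aspn, a small leucine-rich proteoglycan, fell from 6.41 ± 0.936 to 1.8 ± 0.243 TPM (-1.40 ± 0.15) and Col6a3, a chain of collagen VI, from 76.9 ± 3.53 to 32.2 ± 0.149 TPM (-1.23 ± 0.04).

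Col1a1, the main chain of collagen I, had 5471, 5409 and 4724 TPM with IL-33 and 4060, 4084 and 3938 TPM with IL-13 added. The groups did not overlap, and the log2 change was -0.37 ± 0.10 (limma adjusted p = 0.014). The call was lost with median-ratio scaling (-0.27, limma adjusted p = 0.11) and on recovered reads (-0.28, adjusted p = 0.098 by limma's voom). The change was larger with the set term, -0.59 (limma adjusted p = 0.0076). The change with IL-17A present was -0.58 ± 0.10.

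The 5 matrix genes that rose were Loxl3, Loxl4 and Lox, which encode enzymes that cross-link collagen and elastin, with the matricellular genes Postn and Tnc. Loxl3 went from 76.0, 70.1 and 72.2 TPM to 168, 174 and 160 TPM (1.19 ± 0.06, limma adjusted p = 4.5e-08). Postn, which encodes periostin, a protein widely used as a marker of IL-13 activity in airways, went from 209, 223 and 230 TPM to 389, 377 and 395 TPM (0.81 ± 0.07, limma adjusted p = 7.8e-06). Loxl4 went from 12.2 ± 0.342 to 25.0 ± 0.444 TPM (0.98 ± 0.07). Serpinb2, another IL-13 marker of airway epithelium, rose from 62.3 ± 4.21 to 170 ± 1.61 TPM (1.44 ± 0.07).

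**Figure D5:**
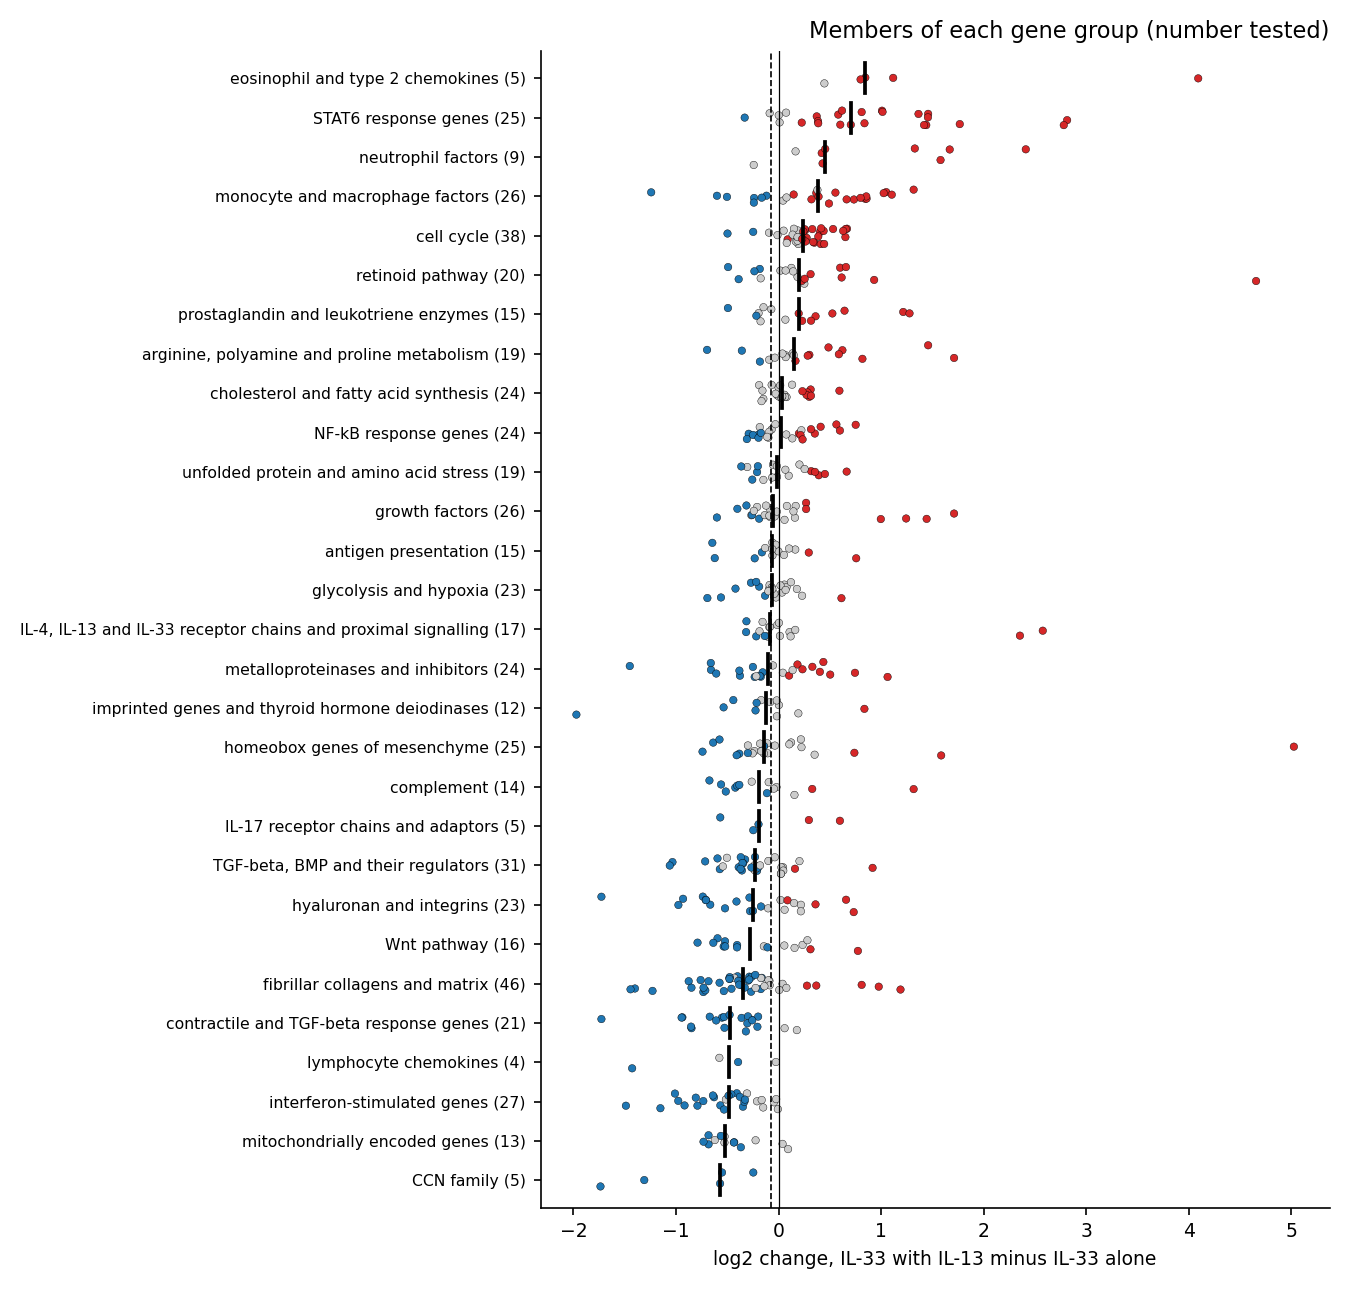
Each row is a gene group with its number of tested members, and each point is a member, by its log2 change with IL-13 added to IL-33 (x axis). Red points were called higher, blue points lower and grey points were not called, thick bars mark the group's median and the dashed line the median of all tested genes (-0.08). The eosinophil and type 2 chemokine group and the STAT6 group are at the top. Contractile, lymphocyte chemokine, interferon-stimulated, mitochondrially encoded and CCN family genes are at the bottom.

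Genes of the contractile apparatus fell as a group. Of 21 tested contractile and TGF-β response genes, 19 fell and none rose (23.7% and 10.5% of all genes). Their median log2 change was -0.48. With the set term 17 fell, and with IL-17A present 16. Markers of smooth muscle and pericytes moved with them: 6 of 7 tested fell and none rose, also with the set term, and their summed level was 1476 to 1507 TPM with IL-33 and 824 to 850 TPM with IL-13 added. The part of these cell types in the change was not tested. Acta2, smooth muscle α-actin and the usual marker of myofibroblasts, had 1356, 1358 and 1338 TPM with IL-33 and 762, 735 and 744 TPM with IL-13 added (-0.85 ± 0.04, limma adjusted p = 7e-08). Untreated cells had 1915 to 1993 TPM, cells with IL-33 and IL-17A 626 to 724 TPM, and cells with all 3 cytokines 406 to 430 TPM. Cnn1, calponin, fell from 462 ± 18.3 to 241 ± 3.35 TPM (-0.94 ± 0.04). Itga11, the collagen-binding integrin α11 of myofibroblasts, fell from 10.1 ± 0.350 to 2.36 ± 0.202 TPM (-1.73 ± 0.07).

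All 5 tested genes of the CCN family of matricellular proteins fell (23.7% of all genes), 4 of them also with the set term. Ccn5 (chromosome 2, 163820861 to 163833146, plus strand) had 137, 141 and 135 TPM with IL-33 and 40.3, 40.9 and 40.5 TPM with IL-13 added (-1.74 ± 0.05, limma adjusted p = 9.2e-10). Its lowest levels, 25.8 to 27.6 TPM, were in cells with all 3 cytokines. Ccn4 fell from 127 ± 11.4 to 50.4 ± 1.77 TPM (-1.31 ± 0.08) and Ccn2, the connective tissue growth factor, from 4242 ± 183 to 2892 ± 24.3 TPM (-0.55 ± 0.05).

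Of the TGF-β ligands, 2 of 3 were lower with IL-13. Tgfb3 fell from 99.7 ± 4.36 to 48.1 ± 1.16 TPM (-1.03 ± 0.04, limma adjusted p = 6.8e-09). Tgfb2 fell from 3.56, 3.8 and 3.98 TPM to 1.20, 1.31 and 1.36 TPM (-1.06 ± 0.09), and untreated cells had 8.72 to 10.5 TPM. Tgfb1 did not pass (168 ± 9.89 and 173 ± 3.82 TPM), and its sign turned with the set term. Ltbp1, which binds latent TGF-β in the matrix, fell from 9.79 ± 0.232 to 5.56 ± 0.0506 TPM (-0.72 ± 0.06), and Bmp2, a bone morphogenetic protein, rose from 3.42 ± 0.998 to 7.23 ± 0.850 TPM (0.92 ± 0.18). Of 31 tested genes of these pathways, 16 fell and 2 rose (23.7% and 10.5% of all genes). The counts were 10 and 3 with the set term and 16 and 5 with median-ratio scaling.

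In the Wnt pathway, 9 of 16 tested genes fell and 2 rose (23.7% and 10.5% of all genes), and with the set term 5 fell and 2 rose. Wnt5a, a ligand of non-canonical signalling, fell from 46.5 ± 3.07 to 30.4 ± 0.728 TPM (-0.60 ± 0.06) and Nkd2, an inhibitor of the pathway, from 24.8 ± 0.887 to 13.9 ± 0.883 TPM (-0.79 ± 0.07). The secreted antagonist Sfrp1 rose from 31.1 ± 2.36 to 53.7 ± 1.26 TPM (0.77 ± 0.07).

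Proteases and their inhibitors moved in both directions, with 9 of 24 tested members higher and 11 lower (10.5% and 23.7% of all genes). The counts were 8 and 7 with the set term and 10 and 6 with median-ratio scaling. Timp3, a matrix-bound inhibitor of metalloproteinases, had 157, 163 and 168 TPM with IL-33 and 57.8, 59.3 and 59.2 TPM with IL-13 added (-1.45 ± 0.06, limma adjusted p = 7.5e-09). Timp1 went the other way, from 2013 ± 177 to 3365 ± 84.6 TPM (0.74 ± 0.12), a call lost with the set term (limma adjusted p = 0.071). The collagenase gene Mmp13 rose from 281 ± 16 to 587 ± 15 TPM (1.06 ± 0.08). Pappa, a protease that frees insulin-like growth factor from its binding proteins, fell from 12.8, 14.1 and 14.4 TPM to 3.34, 3.34 and 3.43 TPM (-1.75 ± 0.09, limma adjusted p = 3.3e-08). The binding protein gene Igfbp3 rose from 95.8 ± 6.92 to 316 ± 11.8 TPM (1.71 ± 0.06) and Igfbp6 from 80.6 ± 0.391 to 162 ± 8.12 TPM (1.0 ± 0.08).

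In the list of hyaluronan and integrin genes, 13 of 23 tested members were lower and 4 higher (23.7% and 10.5% of all genes). The set term gave 8 lower and 2 higher, and median-ratio scaling 12 and 7. Has2, a hyaluronan synthase, fell from 129 ± 4.53 to 64.9 ± 0.605 TPM (-0.98 ± 0.06), and Cemip, which helps degrade hyaluronan, from 57.1 ± 2.57 to 29.4 ± 0.317 TPM (-0.93 ± 0.04). The fibronectin receptor chain Itga5 fell from 489 ± 11.4 to 293 ± 6.21 TPM (-0.74 ± 0.03), and Itgb3, integrin β3, rose from 7.08 ± 0.547 to 12.4 ± 0.210 TPM (0.73 ± 0.05).

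Enzymes of lipid mediators were mostly higher, 8 of 15 tested with 2 lower (10.5% and 23.7% of all genes). With the set term 8 rose and 1 fell. Ltc4s, the leukotriene C4 synthase, rose from 30.0 ± 7.01 to 73.0 ± 3.28 TPM (1.28 ± 0.13), Ptgis, the prostacyclin synthase, from 13.9 ± 0.503 to 33.6 ± 1.66 TPM (1.22 ± 0.06) and Ptges, a prostaglandin E synthase, from 66.8 ± 2.88 to 105 ± 1.11 TPM (0.64 ± 0.03). Alox5, which starts leukotriene synthesis, fell from 7.69 ± 0.802 to 5.15 ± 0.251 TPM (-0.49 ± 0.07).

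The thyroid hormone deiodinases moved in opposite directions. Dio3, which inactivates thyroid hormone, had 34.4, 41.9 and 39.3 TPM with IL-33 and 8.48, 11.8 and 7.40 TPM with IL-13 added (-1.97 ± 0.17, limma adjusted p = 5.1e-06). Dio2, which activates the hormone, had 175, 178 and 208 TPM and 340, 316 and 346 TPM (0.84 ± 0.10, limma adjusted p = 0.00011). Neither pair of groups overlapped, and with IL-17A present the changes were -1.78 ± 0.17 and 0.89 ± 0.10. Dio3 is an imprinted gene, and of the 12 tested genes of that list 5 fell and 1 rose (23.7% and 10.5% of all genes), 2 and 1 with the set term.

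The other leading genes had varied known roles. Of the 15 largest rises named by rule, Rnase2a, an eosinophil-associated ribonuclease gene with close copies, went from 29.0, 33.3 and 51.1 TPM to 246, 279 and 278 TPM (2.83 ± 0.16, limma adjusted p = 1.7e-07). Rassf10, of the Ras-association family, went from 1.18 ± 0.302 to 14.6 ± 1.32 TPM (2.85 ± 0.12), Upp1, a uridine phosphorylase, from 1.44 ± 0.354 to 11.3 ± 0.377 TPM (2.35 ± 0.15) and Aif1l, an actin-binding protein gene, from 2.69 ± 0.718 to 19.2 ± 1.51 TPM (2.47 ± 0.12). All 4 also passed with the set term and with IL-17A present. The histone gene H2bc15 rested on 1 and 21 estimated reads and the pseudogene Rpl30-ps1 on 0 and 4, and neither passed with the set term, where the changes were 3.21 and 1.70 against 3.41 and 2.06 (limma adjusted p = 0.082 and 0.22). Among the 12 largest falls, the immune receptor genes Slamf9 (14.5 ± 2.93 to 4.22 ± 0.644 TPM, -1.56 ± 0.14) and Pilrb2 (7.94 ± 1.48 to 1.79 ± 0.638 TPM, -1.69 ± 0.22) passed with the set term. The pseudogene Tpt1-ps5, on 5 and 1 reads, did not (limma adjusted p = 0.11).

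The most abundant genes called were Gm8730, Rplp1 and Rpl41, higher by 0.30 to 0.68 on the log2 scale, and mt-Co1, Lyz2 and Actb, lower by 0.12 to 0.44. The first 3 are a ribosomal protein pseudogene and 2 ribosomal protein genes. The set term was not read for mt-Co1, which belongs to the genes that define the low-mitochondrial set. None of the others passed with that term, and none of the 6 was called with IL-17A present.

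Interferon-stimulated genes were lower, 19 of 27 tested (23.7% of all genes) with none higher and a median log2 change of -0.49. This count rested on the comparison made: 5 fell with the set term and 10 with IL-17A present. Gbp2, a guanylate-binding protein, fell from 18.9 ± 0.291 to 9.13 ± 1.15 TPM (-0.98 ± 0.07) and Ifi44 from 9.07 ± 0.783 to 4.0 ± 0.353 TPM (-1.01 ± 0.09), and both passed with the set term. Ifit3, of a family with near-identical copies, fell from 5.31 ± 2.69 to 1.16 ± 0.487 TPM (-1.49 ± 0.25). Of the 13 mitochondrially encoded genes, 7 were called, all lower, with a list median of -0.53. With IL-17A present none of the 13 was called, and the list median was 0.14. The low-mitochondrial set was defined by these genes, so their values with the set term are not given. Complement genes, 7 of 14 lower, had 1 lower gene with that term, C1s1 (-0.51 ± 0.05), a serine protease of the classical pathway.

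Cell cycle genes were higher by small amounts, 23 of 38 tested with 2 lower (10.5% and 23.7% of all genes). Their median log2 change was 0.24. With the set term 21 rose, and with IL-17A present 27. Rrm2, a subunit of ribonucleotide reductase, went from 171 ± 3.18 to 270 ± 13.0 TPM (0.65 ± 0.05), Cdc20, an activator of the anaphase-promoting complex, from 92.7 ± 4.46 to 148 ± 8.46 TPM (0.67 ± 0.06) and the mitotic kinase gene Aurkb from 44.3 ± 1.42 to 70.3 ± 4.80 TPM (0.65 ± 0.06). Cdkn1b, the inhibitor p27, fell from 111 ± 6.55 to 78.1 ± 1.27 TPM, a log2 change of -0.50. The proliferation marker Mki67 did not pass (53.6 ± 3.93 and 50.2 ± 4.12 TPM).

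Among NF-κB response genes, 9 of 24 rose and 6 fell, 5 and 1 with the set term and 10 and 3 with median-ratio scaling. In the main fit 10.5% of all genes were called higher and 23.7% lower, the background for each list in this paragraph. Nfkb1, which encodes the p105 and p50 proteins, rose from 15.7 ± 1.03 to 27.1 ± 0.516 TPM (0.75 ± 0.06), and Zc3h12a, an RNase that degrades cytokine transcripts, from 71.9 ± 1.10 to 109 ± 1.16 TPM (0.60 ± 0.05). In the antigen presentation list 4 of 15 fell and 2 rose, close to the shares of all genes. With the set term no member was called. Of 24 cholesterol and fatty acid genes 7 rose, 2 with the set term and 11 with median-ratio scaling. Of 23 glycolysis and hypoxia genes 7 fell and 1 rose, 8 and 1 with the set term and 5 and 3 with median-ratio scaling. With IL-17A present 14 of them fell and 1 rose, against 9.65% and 6.98% of all genes there. Of 19 stress genes of the endoplasmic reticulum and amino acid supply 5 rose and 4 fell, 6 and 1 with the set term and 7 and 1 with median-ratio scaling, with the chaperone gene Hspa5 going from 1793 ± 58.2 to 2293 ± 34.5 TPM (0.35 ± 0.03).

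The addition of IL-13 was compared with and without IL-17A by an interaction term. In the libraries with IL-17A, 2195 genes were called (16.6%), 921 higher and 1274 lower. With the set term these counts were 2472 (18.7%), 948 (7.18%) and 1524 (11.5%), and the set term itself was called for 2303 genes (17.4%). The difference between both additions was called for 46 genes (0.348%), 21 higher (0.159%) and 25 lower (0.189%), and for 2 with the set term, Tgfb3 and Rgs16. Rgs16, an inhibitor of G protein signalling, rose from 246 ± 3.37 to 516 ± 14.4 TPM without IL-17A (1.07 ± 0.04) and by 0.40 with it. Tgfb3 fell by 1.03 and by 0.32 on the log2 scale. Leaving out replicate 1 of IL-33 with IL-17A took the count of such differences to 3075, and leaving out replicate 1 with all 3 cytokines took it to 2327. In each case the remaining libraries of that group lay on 1 side of the low-mitochondrial share. Besides Rgs16, the genes Cdkn1b, Chil3, Il1b, Lox, Mki67, Mrc1, Rara, Rarg, Socs3 and Tnc, and Tgfb3 in this comparison, were named after their values were seen.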

How the data were processed

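RNA sequencing of 15 libraries in 5 groups gave TPM values per gene, which the authors deposited as 1 file per library. Reads were aligned with HISAT2 to mm10, per the submitters' processing notes. The quantifier, its use of strand and its treatment of reads with several matches were not given in the sources used here, so genes with near-identical copies, overlapping genes and antisense genes are uncertain. The TPM values deposited by the authors were found to be scaled by gene span, introns included. TPM times span gave whole multiples of a step for 88.8% to 90.3% of values up to 100 reads (tolerance 0.03), which gave the depth of each library (10554595 to 15123270 reads). Intervals and floors from reads cover counting error only. All per-sample columns were used (0 left out).

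Genes at 1 TPM or more in 3 of the 6 libraries with IL-33 or with IL-33 plus IL-13 were tested on log2(TPM + 1) by limma 3.58.1 (R 4.3.3, trend and robust options), with all 15 libraries in 1 fit of 5 group means. This left out 4876 genes. Values past 0.05 after Benjamini-Hochberg adjustment over all tested genes were called. Because of the added 1 TPM, fold changes of low genes are understated. Tables and plots used Python 3.11.15, pandas 2.3.3, scipy 1.17.1 and matplotlib 3.10.9. The fit was tested on simulated data.

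Named genes were the 15 largest rises and 12 largest falls with 3 TPM or more in the higher group, no overlap and a symbol that is no clone or predicted-gene name, up to 5 called members of each list, a set of receptor, chemokine and matrix genes, the neighbours of Ccl11 and Il1rl1, the largest differences with IL-17A and the most abundant calls. Members, lists and tests were chosen with earlier results of these data known. Alternatives were the pseudocount, the filter, the scaling, leaving out mitochondrial genes, the set term, limma's options, the groups in the fit and each replicate left out. Limma's voom on recovered reads was added after the data were seen. Libraries of a group differed by more than counting noise, so each was counted once. Replicate numbers within a group follow the order of deposit and only name a library.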

Additional observations from a re-analysis of the deposited data

Results flagged for a closer look

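For 10 of 54 named genes the change with IL-13 differed between cells without and with IL-17A, by the interaction term of the limma fit. The 54 are the largest rises and falls, the set of receptor, chemokine and matrix genes, the largest differences and the most abundant calls. Genes named only as list members, as neighbours or after their values were seen are left out. Among these are Ptges, whose difference was also called, and Rgs16 and Tgfb3, whose differences passed with the set term. A negative difference means a smaller rise with IL-17A present. It was -1.3053 for Rassf10 (limma adjusted p = 0.006), -1.0662 for Cish (0.0072), -0.7835 for Lif (0.0035), -0.6687 for Ccl2 (0.026), -0.4639 for Arg1 (0.015) and -0.4102 for Csf1 (0.0032). Cish had 13.3 ± 0.799 and 29.3 ± 2.77 TPM without IL-13 (IL-33 alone, then with IL-17A), and 99.2 ± 6.44 and 100.5 ± 7.39 TPM with it. Lif had 119 ± 2.07 and 332 ± 15.6 TPM without IL-13, and 257 ± 6.3 and 414 ± 18.4 TPM with it.

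For 4 genes the difference was positive: 0.75 for the protease inhibitor gene Timp3 (limma adjusted p = 0.0031), 0.813 for the matrix proteoglycan gene Prelp (0.0096), 0.8569 for the RNA-binding protein gene Rc3h2 (0.016) and 0.893 for Tgfb2 (0.011). Timp3 had log2 changes of -1.45 without and -0.70 with IL-17A, and Tgfb2 of -1.06 and -0.17. Prelp and Rc3h2 were lower without IL-17A (-0.52 for both) and higher with it (0.29 and 0.33). None of the 10 differences passed with the term for the low-mitochondrial set (limma adjusted p = 0.07 to 0.67). Their sizes in that fit were -1.14 for Rassf10, -0.83 for Cish, -0.64 for Lif, -0.41 for Ccl2, -0.40 for Arg1, -0.44 for Csf1, 0.53 for Timp3, 0.51 for Prelp, 0.61 for Rc3h2 and 0.64 for Tgfb2, each with the same sign. The part of the set in these differences was not tested.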

How the results depend on the processing

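The term for the low-mitochondrial set had a large effect: 1428 genes were called in place of 4519, 133 in place of 210 at 2-fold or more, and 2 in place of 46 for the difference with IL-17A. Of the 4519 calls, 1207 (26.7%) were shared with that fit in the same direction. The cause of the set was not tested. Leaving out 1 replicate gave 3130 to 4017 calls, and 184 to 221 at 2-fold or more. With IL-17A present, a fit of those groups alone called 783 genes in place of 2195, and leaving out 1 replicate gave 1445 to 2557, the lowest without replicate 2 of all 3 cytokines. The difference with IL-17A was called for 91 genes with median-ratio scaling, 1455 by voom on recovered reads, and 20 to 3075 with 1 replicate left out.

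Tgfb1 turned to -0.065 with the set term, and ranged from -0.0060 (without replicate 3 of IL-33) to 0.069 with 1 replicate left out. Il4ra turned to -0.020 without mitochondrial genes and to -0.024 with the set term, and ranged from -0.016 to 0.021. Il1rap turned to 0.0703 with median-ratio scaling, 0.0698 by voom and 0.23 with the set term, and ranged from -0.047 to 0.026. Il2rg turned to 0.23 with the set term. Over the alternatives for the 54 named genes described above, 745 values kept direction and side of the threshold, 47 lost the call and 12 turned sign. With the set term alone, 36 of the 54 kept both, 14 lost the call and 4 turned sign. Genes named only as list members, as neighbours or after their values were seen were not in these counts. No paired analysis was possible because the labels number the libraries through the whole series and give no replicate number within a group. Depth limits genes of few reads, such as H2bc15 and Retnla.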

Other observations

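Genes of myeloid cells moved in both directions with IL-13, and the following were chosen after their values were seen. Lower were the pattern recognition receptors Tlr2 (297 ± 18.4 to 123 ± 3.34 TPM, log2 change -1.26 ± 0.07, limma adjusted p = 1.1e-07), Clec4e (23.1 ± 3.22 to 8.11 ± 0.648 TPM, -1.40 ± 0.13) and Tlr9 (4.56 ± 0.431 to 1.28 ± 0.241 TPM, -1.29 ± 0.19), and Cybb, a subunit of the phagocyte NADPH oxidase (37.8 ± 3.1 to 16.9 ± 0.327 TPM, -1.11 ± 0.07). Higher were Ms4a4a, a membrane protein gene of macrophages (8.8 ± 1.14 to 27.8 ± 1.38 TPM, 1.56 ± 0.10), and Pf4, which encodes platelet factor 4 (431 ± 17.6 to 975 ± 83.8 TPM, 1.17 ± 0.10). All 6 were called in the same direction with the set term and with IL-17A present. Clec10a, a lectin of macrophages and dendritic cells, rested on 5 and 95 reads, a ratio of 16 (95% exact interval 6.61 to 50.3).

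Other genes chosen after their values were seen included Rnf19b, a ubiquitin ligase gene, at 53.5, 53.2 and 54.9 TPM with IL-33 and 215, 214 and 217 TPM with IL-13 added (1.98 ± 0.04, limma adjusted p = 9.9e-12). S1pr3, a receptor for sphingosine 1-phosphate, rose from 19.8 ± 2.27 to 63.3 ± 2.99 TPM (1.63 ± 0.08), Kitl, the stem cell factor, from 2.2 ± 0.163 to 7.28 ± 0.546 TPM (1.37 ± 0.10), and Ednrb, an endothelin receptor, from 10.3 ± 1.87 to 21.8 ± 0.753 TPM (1.02 ± 0.12). F3, tissue factor, fell from 170 ± 6.77 to 65.6 ± 1.98 TPM (-1.36 ± 0.07) and Lrrc15, a marker of activated fibroblasts, from 23.5 ± 1.67 to 9.26 ± 0.122 TPM (-1.25 ± 0.07).

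The largest fitted rise of all belonged to 1810049J17Rik, at under 0.01 TPM in all 3 libraries with IL-33 and 51.4, 70.6 and 97 TPM with IL-13 added (6.16 ± 1.25, limma adjusted p = 0.0034). Its levels elsewhere followed the low-mitochondrial set. With IL-33 and IL-17A it had 60.4 and 118 TPM in the 2 libraries of the set and 9.9 TPM in the other. With all 3 cytokines it had 103 TPM in the library of the set and 7.44 and 5.01 TPM outside it. Untreated cells, all outside the set, had up to 22.2 TPM. In the fit with the set term, that term was 3.42 (limma adjusted p = 0.029). The change with IL-13 was 2.74 there and did not pass (limma adjusted p = 0.22).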
